A study of Mus musculus with 9 samples.

Results

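The antigen receptor loci are the stretches of the mouse genome in which lymphocytes join gene segments into immunoglobulin and T cell receptor genes, and their H3R2me2a peaks are described here. Members were all peaks whose start lay in 1 of 6 mm10 intervals. These were Igh on chromosome 12 from 113258000 to 116010000, Igk on chromosome 6 from 67555000 to 70727000, Igl on chromosome 16 from 19026000 to 19261000, Tcra/Tcrd on chromosome 14 from 52427000 to 54225000, Tcrb on chromosome 6 from 40891000 to 41560000, and Tcrg on chromosome 13 from 19178000 to 19357000. Together the intervals span 8805 kb, and 6355 of the 1548240 listed peaks started in them. The Prmt6KO libraries held 2961 and 1940 such peaks of 814517 and 431638 listed. The Igf2bp2KO libraries held 0 and 2 of 1028 and 1261. The WT libraries held 818 and 634 of 165304 and 134492.

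The samples were mouse bone marrow cells, called leukemia cells in the series' design text, of genotype Prmt6KO, Igf2bp2KO or WT. All were grown with interleukin 3, interleukin 6 and stem cell factor, then fixed and sonicated for chromatin immunoprecipitation with sequencing (ChIP-seq) against H3R2me2a, the asymmetric dimethylation of arginine 2 of histone H3. There were 2 such libraries of each genotype and 3 input libraries, 1 of each genotype. The labels give no promoter, age or strain. They also leave unsaid how the 2 libraries of each genotype relate (2 animals, 2 cultures or 1 sample split), so the spread between them may be technical. The inputs were not analysed here.

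PRMT6 is the arginine methyltransferase that deposits H3R2me2a, and IGF2BP2 binds m6A-modified RNA. In developing B and T cells the RAG recombinase cuts at recombination signal sequences beside variable (V), diversity (D) and joining (J) segments, and the ends are joined by non-homologous end joining. The heavy chain locus Igh has V, D, J and constant (C) genes, and the light chain loci Igk and Igl have no D segments. Tcra and Tcrd share 1 locus, with the Tcrd segments lying between the Tcra V and J segments. Myeloid cells do not use these loci to make receptors. RefSeq annotates 666 segments and C genes over the 6 loci, namely 527 V, 24 D, 94 J and 21 C, and Igh alone has 184 V segments.

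RefSeq promoter windows of 300 bases, from the GRCm38.p6 assembly on which mm10 is based, existed for 29 genes in the intervals and for no V segment. A peak overlapped 5 and 5 of them in the Prmt6KO libraries, 0 and 0 in the Igf2bp2KO libraries, and 2 and 3 in the WT libraries. Over all RefSeq promoter windows the overlapped share was 13.99% and 4.95% in Prmt6KO and 1.91% and 1.15% in WT. Only 1 window had a peak in both libraries of a genotype, that of 1700074P13Rik in the V part of Tcrb (chr6:40940508-40940807, minus strand), with a fold enrichment of 1.73 and 2.72 in Prmt6KO and no peak in WT. The windows of Adam6b (chr12:113489315-113489614, plus strand) and Adam6a (chr12:113543658-113543957, plus strand) are shown because of their likeness. Both are sperm-protein genes inside Igh, Adam6b between Ighd1-1 and Ighd3-1 and Adam6a between the last D segment and the V array. Adam6a had a peak of fold 2.72 in Prmt6KO replicate 2 alone, and Adam6b had none in any library. Capitals in these 2 mark their longest identical run, 199 bases, within which a read matches both genes. The window of Gm40899 (chr12:114764158-114764457, plus strand) lies in the 50 kb of Igh with the most peaks in all long lists but that of WT replicate 2, and had a peak of fold 2.84 in WT replicate 1 alone. Its capitals mark the heptamer of the recombination signal, CACAGTG, here on the opposite strand.
1700074P13Rik: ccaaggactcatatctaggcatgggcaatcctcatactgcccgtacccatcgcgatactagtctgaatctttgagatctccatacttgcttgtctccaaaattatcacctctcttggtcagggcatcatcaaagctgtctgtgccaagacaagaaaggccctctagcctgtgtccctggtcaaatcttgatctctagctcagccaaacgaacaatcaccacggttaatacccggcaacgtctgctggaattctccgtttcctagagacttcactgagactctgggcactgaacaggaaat
Adam6b: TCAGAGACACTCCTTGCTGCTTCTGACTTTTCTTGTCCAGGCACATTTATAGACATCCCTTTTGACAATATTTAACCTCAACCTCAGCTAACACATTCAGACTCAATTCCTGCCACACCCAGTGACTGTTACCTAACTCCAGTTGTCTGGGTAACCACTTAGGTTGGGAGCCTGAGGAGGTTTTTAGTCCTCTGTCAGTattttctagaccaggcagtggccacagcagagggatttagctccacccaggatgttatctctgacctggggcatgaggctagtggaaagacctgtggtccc
Adam6a: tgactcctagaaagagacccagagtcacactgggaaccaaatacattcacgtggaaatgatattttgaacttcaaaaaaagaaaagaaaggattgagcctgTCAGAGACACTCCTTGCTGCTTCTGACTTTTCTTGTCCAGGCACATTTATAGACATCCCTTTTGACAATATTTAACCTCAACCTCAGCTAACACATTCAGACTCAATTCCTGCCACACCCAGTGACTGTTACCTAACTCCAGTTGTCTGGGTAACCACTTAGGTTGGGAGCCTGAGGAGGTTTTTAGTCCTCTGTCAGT
Gm40899: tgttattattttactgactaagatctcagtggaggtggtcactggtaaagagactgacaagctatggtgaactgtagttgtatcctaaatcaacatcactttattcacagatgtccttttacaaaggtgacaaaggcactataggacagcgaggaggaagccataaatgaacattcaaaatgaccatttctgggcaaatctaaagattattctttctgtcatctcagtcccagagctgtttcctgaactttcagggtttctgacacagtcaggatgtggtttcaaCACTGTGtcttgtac
The heptamer CACAGTG was searched on both strands and stood in 6.81% of all 32851 RefSeq promoter windows, and the octamer ATGCAAAT, known from immunoglobulin promoters, in 1.74%. None of the 4 windows held the octamer.

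The libraries differed widely before any locus was considered. The lists differed in length, and the lowest summit listed had 2 and 3 fragments in Prmt6KO against 4 and 4 in WT, so lists of different genotypes were compared by ratios within a list. The median fold enrichment was 2.30 and 2.26 in Prmt6KO, 3.28 and 3.08 in Igf2bp2KO and 2.84 and 2.87 in WT. The share of peaks with a q of 0.05 or below was 0.497% and 1.34% in Prmt6KO, 10.9% and 7.62% in Igf2bp2KO and 3.05% and 2.03% in WT. Over autosomal bins of 200 kb the coefficient of variation of the peak number was 18.5% and 39.6% in Prmt6KO and 56.5% and 69.9% in WT, where counting alone gives 12.6% and 17.4%, and 27.4% and 31.2%. The profile of Prmt6KO replicate 1 was the flattest. WT replicate 1 stood apart on chromosome X, with 0.181 times its autosomal peak density, against 1.20 times in WT replicate 2. At the targeted genes, taken with 5 kb either side, Prmt6 had 7 and 4 peaks in Prmt6KO libraries and 4 and 0 in WT libraries, and Igf2bp2 had 0 and 0 in Igf2bp2KO libraries and 4 and 3 in WT libraries. A peak list shows no deletion, so these counts do not check the labels. The sources used here do not say how reads matching several copies of a segment were placed.

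As a whole the loci held more peaks than their length alone gives. Igh stood out in 3 of the 4 long lists only against its flanks of equal length. Relative to the autosomal mean, Igl was denser than Igh in those 3 lists, though from far fewer peaks. The density of peaks over the 6 loci was 1.06 and 1.34 times the autosomal mean in Prmt6KO and 1.39 and 1.40 times in WT. Autosomal 200 kb bins that no coding gene overlaps, as is true of 37 of the 45 bins of the loci, had a median of 0.979 and 1.21 times the mean in Prmt6KO and 1.12 and 1.17 times in WT, against 1.04 and 1.30 times, and 1.27 and 1.26 times, for the loci. In the loci 16 and 25 peaks in Prmt6KO and 24 and 13 in WT had a q of 0.05 or below, which is 0.540% and 1.29%, and 2.93% and 2.05%, of the members, close to the share in each whole list.

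Igh was denser than its flanks of equal length in all 4 long lists, by 1.11-fold (95% interval 1.03 to 1.20) in Prmt6KO replicate 1, 2.07-fold (1.85 to 2.32) in Prmt6KO replicate 2, 2.52-fold (2.12 to 3.00) in WT replicate 1 and 3.53-fold (2.82 to 4.44) in WT replicate 2. Intervals in this text are exact, Clopper-Pearson for ratios and Poisson for counts, and cover counting error only. The counts behind them were 947 and 642 peaks in Prmt6KO and 300 and 219 in WT. Both Prmt6KO ratios lay below both WT ratios, and the genotypes differed by -0.98 on the log2 scale (Prmt6KO minus WT). The means were 0.60 ± 0.63 in Prmt6KO and 1.58 ± 0.34 in WT (SD, n = 2 each). The two-sided exact permutation test gave p = 0.333, the smallest p that 2 libraries against 2 allow, and 0.8 after Benjamini-Hochberg adjustment over the 6 loci. The flanks differ in gene content from the locus, and the part of this in the difference was not tested. The flank on the constant-region side holds 59 coding genes, 21.4 per Mb against an autosomal mean of 8.55, and the flank on the V side holds 10. Against autosomal bins without coding genes the difference was -0.24, a comparison chosen after the data were seen, and against the rest of chromosome 12 it was -0.44. With the 134492 highest-scoring peaks of each list it was -0.69, with summits of at least 5 fragments -0.60 and with peaks of q 0.05 or below -0.15, and under each of these 3 settings the genotypes overlapped. It was -0.53 without Prmt6KO replicate 1.

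**Figure D1:**
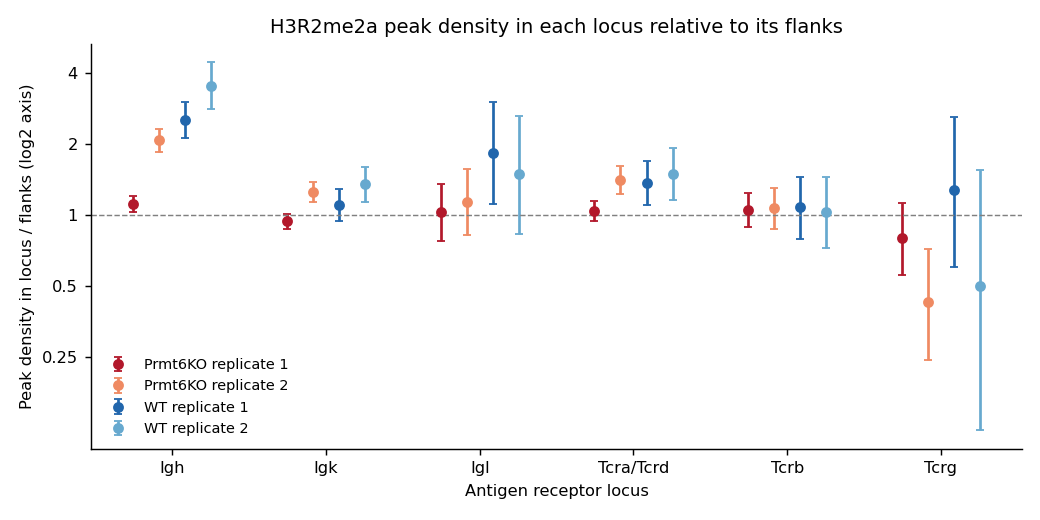
Peak density in each locus divided by that in its flanks, on a log2 axis, for the 2 Prmt6KO and 2 WT libraries. Bars are exact 95% intervals for counting error and the dashed line marks equal density. Igh spreads from 1.11 in Prmt6KO replicate 1 to 3.53 in WT replicate 2, and Tcrb lies between 1.03 and 1.08 in all 4 libraries.

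The other loci except Tcrg stood closer to their flanks than Igh in all 4 long lists. Tcrg stood farther from its flanks in Prmt6KO, on the sparse side. Its log2 ratios there were -0.33 and -1.22, against 0.15 and 1.05 at Igh. Igk, the kappa light chain locus, had ratios of 0.941 and 1.25 in Prmt6KO and 1.10 and 1.35 in WT, from 1040 and 708 peaks and 254 and 225 peaks. The genotypes overlapped, with a difference of -0.16 (exact permutation p = 0.667, adjusted 0.8, n = 2 each). Igl, the lambda light chain locus, had 1.03 and 1.14 in Prmt6KO, both below the 1.83 and 1.48 in WT, a difference of -0.61 (exact permutation p = 0.333, adjusted 0.8), but from only 81 and 62 peaks and 33 and 23 peaks, and the intervals of Prmt6KO replicate 2 (0.819 to 1.57) and WT replicate 2 (0.826 to 2.63) overlap. Tcra/Tcrd had 1.04 and 1.41 in Prmt6KO and 1.36 and 1.49 in WT, a difference of -0.23 (exact permutation p = 0.667, adjusted 0.8). Tcrb had 1.05 and 1.07 in Prmt6KO and 1.08 and 1.03 in WT, a difference of 0.01 (exact permutation p = 1). Tcrg had 0.797 and 0.429 in Prmt6KO and 1.27 and 0.50 in WT, a difference of -0.45 (exact permutation p = 0.667, adjusted 0.8), from 47 and 18 peaks and 14 and 4 peaks. The interval of Prmt6KO replicate 2 at Tcrg (0.242 to 0.719) lay below 1. The Igk and Tcra/Tcrd differences turned positive with peaks of q 0.05 or below alone, at 0.21 and 0.40. Without Prmt6KO replicate 1 the Igk difference was 0.042 and the Tcra/Tcrd difference -0.016. The Tcrg difference turned positive at 0.079 against the rest of chromosome 13 and at 0.22 without WT replicate 1. At Tcrb it was -0.37 against the rest of chromosome 6.

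Within Igh the peaks were not spread evenly. The locus lies on the chromosome with the C genes at the low coordinates, then J and D, then V segments out to Ighv1-86 at the distal end. The C gene stretch from Igha to Ighm, which encode the IgA and IgM heavy chains, held 55 and 16 peaks in Prmt6KO and 9 and 1 in WT. Relative to the autosomal density this is 1.04 and 0.582 in Prmt6KO and 0.810 and 0.117 in WT, and the interval of WT replicate 2 (0.00296 to 0.650) lies below 1. The D and J stretch was at 0.835 and 0.863 in Prmt6KO and 1.52 and 0.791 in WT, from 26 and 14 peaks and 10 and 4 peaks, and every interval includes 1. Of the 8 C genes, 6 and 2 were overlapped by a peak in Prmt6KO and 1 and 0 in WT, where the density of the locus gives 5.99 and 4.95 in Prmt6KO and 2.99 and 2.35 in WT. Ighd, the IgD gene, was overlapped in 3 of the 4 lists, with a fold of 2.30 and 2.26 in Prmt6KO and 3.25 in WT replicate 1, and Ighm in Prmt6KO replicate 1 alone with 2.30.

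The longest stretch of Igh without a peak start differed from library to library. In WT replicate 2 it covered the C genes: no peak started for 261 kb between 113114038 and 113375535, from outside the interval to just past Ighg3. The other libraries had 71 and 20 peaks (Prmt6KO) and 10 peaks (WT replicate 1) there, and 0.134% of the autosomal gaps of WT replicate 2 are as long. In Prmt6KO replicate 2 the longest gap, 40.1 kb from 113255793 to 113295872, also lay over the C genes, with 14 peaks in Prmt6KO replicate 1, 1 in WT replicate 1 and 0 in WT replicate 2, and 0.613% of that library's autosomal gaps are as long. In Prmt6KO replicate 1 and WT replicate 1 the longest gaps were in the V array beside Ighv5 segments, at 18.1 kb and 69.3 kb. These gaps were looked for after the data were seen and were chosen as the longest. Each is the longest of 948 and 643 gaps in Prmt6KO and 301 and 220 in WT. The shares refer to single gaps, so they do not give how rare the longest of so many is.

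Peak density rose along the V array away from the D segments in all 4 libraries. Cut into 3 equal stretches of 812 kb, the V array held 254, 275 and 317 peaks in Prmt6KO replicate 1 and 156, 215 and 232 in Prmt6KO replicate 2, counted outward from the D segments. WT replicate 1 held 56, 99 and 122, and WT replicate 2 held 27, 77 and 109. The stretch farthest from D, which ends with the large Ighv1 family, exceeded the nearest by 1.25-fold (1.05 to 1.48) and 1.49-fold (1.21 to 1.83) in Prmt6KO and by 2.18-fold (1.58 to 3.05) and 4.04-fold (2.63 to 6.40) in WT. Every interval excluded equal density. The difference between genotypes in the log2 of this ratio was -1.12, with both Prmt6KO libraries below both WT libraries. The means were 0.45 ± 0.18 in Prmt6KO and 1.57 ± 0.63 in WT (SD, n = 2 each, exact permutation p = 0.333, the smallest possible). This comparison was not planned, and its p was not adjusted over Igh, Igk and Tcra/Tcrd, where the same ratio was taken. The difference was -0.68 without WT replicate 2, -0.64 with summits of at least 5 fragments and -0.74 at equal list length. At equal list length Prmt6KO gave 0.78 and 0.80 and WT 1.05 and 2.01. Igk showed a smaller ratio of the same kind, 0.992 and 1.06 in Prmt6KO and 1.21 and 1.63 in WT, and only that of WT replicate 2 (1.14 to 2.35) excluded 1. In Tcra/Tcrd the ratio was 1.15 and 1.12 in Prmt6KO and 1.87 and 0.848 in WT, so the WT libraries lay on either side of both Prmt6KO libraries.

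**Figure D2:**
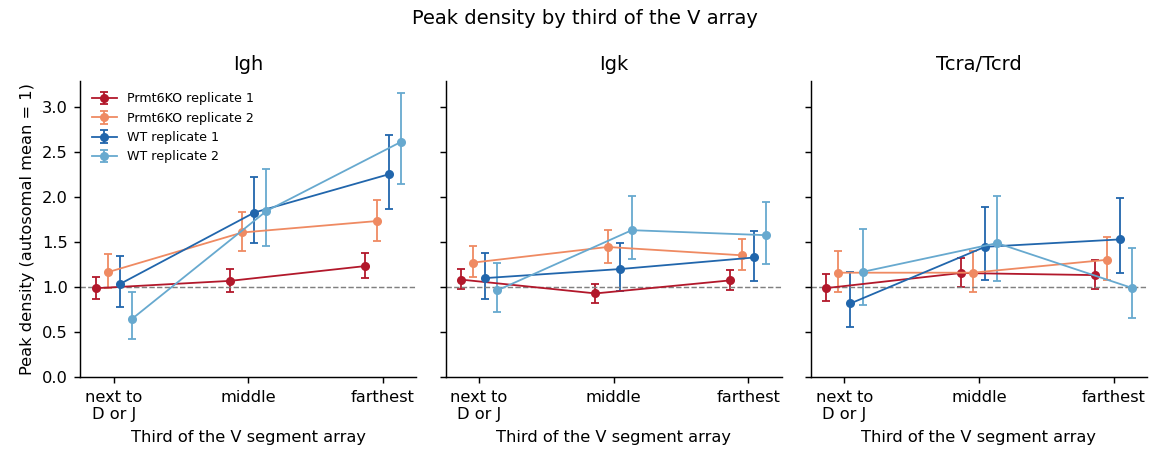
Peak density relative to the autosomal mean in 3 equal stretches of the V array of Igh, Igk and Tcra/Tcrd, from the stretch nearest to the D or J segments to the farthest. Bars are exact 95% Poisson intervals. In Igh all 4 lines climb, from 0.646 to 2.61 in WT replicate 2 and from 0.987 to 1.23 in Prmt6KO replicate 1.

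Density steps were called per library at positions every 25 kb, where 250 kb on either side held at least 10 peaks together, differed 2-fold or more and gave an exact binomial p of 0.01 or below. Prmt6KO replicate 1 had 0 calls at 352 positions in the loci, against 0.489% of all positions in that library. Prmt6KO replicate 2 had 7 of 352 calls, which is 1.99% against 3.45% over all positions. WT replicate 1 had 9 of 352, 2.56% against 3.49%, and WT replicate 2 had 27 of 347, 7.78% against 3.81%. The shares in 3 libraries are therefore at or under their background, and neighbouring positions share peaks. Calls of 1 direction at neighbouring positions were merged into steps, which gave 0 and 3 steps in Prmt6KO and 2 and 7 in WT. No step was called in Igk, Igl or Tcra/Tcrd in any of the 4 libraries.

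The step that recurred was the distal end of Igh, where the V array meets the flank. It was called between 115925000 and 116000000 in Prmt6KO replicate 2, with 77 peaks on the locus side and 30 on the flank side at 115975000, between Ighv1-83 and Ighv1-84. In WT replicate 1 it was called from 115975000 to 116000000, with 40 and 19 peaks at its strongest position. In WT replicate 2 it was called from 115825000 to 116000000, with 49 and 12 peaks. Prmt6KO replicate 1 had 92 and 92 peaks at 115975000. A direct comparison of the Prmt6KO libraries, a Fisher test on the 4 arm counts with an odds ratio of 2 or more and p of 0.01 or below, called this end as a difference at 4 of 352 positions, 1.14% of positions against 1.69% genome-wide. On the C gene side, Prmt6KO replicate 2 had a step between Ighg3 and Ighd with 20 and 42 peaks, and WT replicate 2 one between Ighm and Ighj4 with 1 and 12 peaks.

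WT replicate 2 had 5 further steps inside the Igh V array that no other library had. Its density jumped between Ighv9-4 and Ighv3-7, with 4 peaks before and 25 after 114300000, and rose again between Ighv12-3 and Ighv6-3 with 6 and 23 peaks. It dropped between Ighv1-33 and Ighv1-34 with 25 and 8, then jumped between Ighv8-5 and Ighv1-50 with 8 peaks before and 37 after 115100000, and rose once more between Ighv8-9 and Ighv1-63 with 18 and 46. At 114300000 WT replicate 1 had 19 and 22 peaks, and at 115100000 it had 25 and 29. The comparison of the 2 WT libraries called 8 of 347 positions in the loci, 2.31% against 0.691% genome-wide, of which 6 lay in Igh. The other 2 lay in Tcra/Tcrd between Trav15-3 and Trav3-4, with 19 and 9 peaks in WT replicate 1 and 8 and 20 in WT replicate 2. No position was called as a difference between Prmt6KO and WT in all 4 pairs of libraries, 0 of 347 against 0.0861% genome-wide. Single pairs gave different answers. Prmt6KO replicate 1 differed from WT replicate 1 at 9 positions, 2.56% against 2.40% genome-wide, and from WT replicate 2 at 22, 6.34% against 2.84%. Prmt6KO replicate 2 differed from WT replicate 1 at 1 position, 0.284% against 0.945%, and from WT replicate 2 at 10, 2.88% against 1.03%. The shares above background by more than 2-fold are thus those with WT replicate 2.

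**Figure D3:**
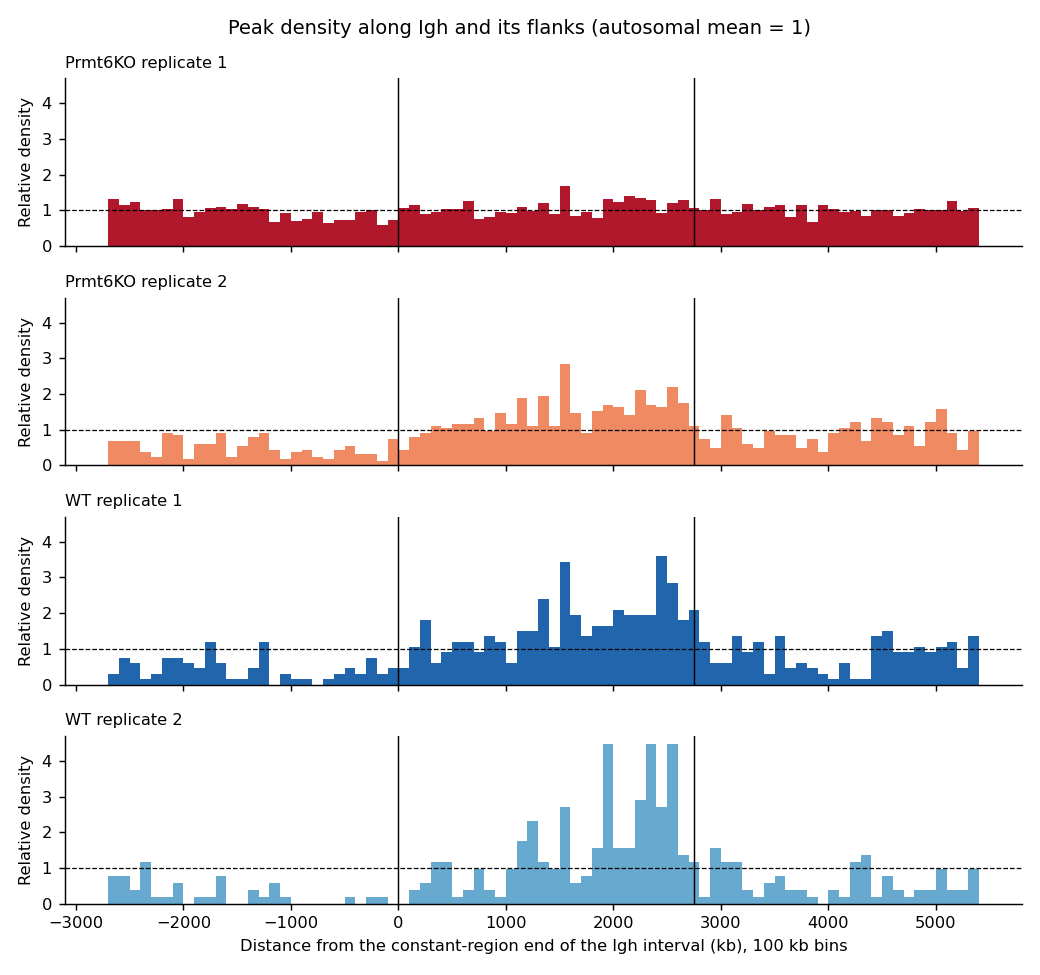
Peak number per 100 kb bin relative to the autosomal mean (dashed line) along Igh, between the vertical lines, and its flanks, in kb from the constant-region end of the interval. Bins inside the locus reach 1.67 in Prmt6KO replicate 1, 2.85 in Prmt6KO replicate 2, and 3.595 and 4.471 in WT. In the flank before the constant-region end, Prmt6KO replicate 1 falls to 0.600 and Prmt6KO replicate 2 to 0.121, both at 200 kb before it. WT has 0.300 and 0.194 there, and both WT libraries reach 0 in other bins of that flank.

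A few places in the loci carried peaks in all 4 long lists, no larger a share than over the whole list. Of the 818 WT replicate 1 peaks in the loci, 6 were overlapped by a peak in each of the other 3 lists. This is 0.733% against 1.53% of all its peaks. Of the 6, 4 were in Igh, 1.33% of its 300 peaks. The strongest lay between Ighv8-5 and Ighv1-50, from 115105514 to 115105737 in WT replicate 1, with folds of 4.03 and 4.98 in Prmt6KO and 3.25 and 3.28 in WT. Another lay between Ighv1-24 and Ighv1-25, from 114773144 to 114774036, with folds of 2.88 and 3.17 in Prmt6KO and 4.47 and 2.87 in WT. It belongs to the densest 50 kb of Igh in 3 of the 4 libraries, from 114750001 to 114800000 between Ighv1-22 and Ighv1-27, with 34 and 32 peaks in Prmt6KO and 21 and 9 in WT. The autosomal mean gives 15.8 and 8.25 in Prmt6KO and 3.34 and 2.57 in WT. In the same stretch, overlapping Gm40899, a Prmt6KO replicate 1 peak from 114765375 to 114766004 marked a place with folds of 4.61 and 4.07 in Prmt6KO and 2.44 and 2.87 in WT. This place is not among the 6, which were counted from the peaks of WT replicate 1. WT replicate 2 had its densest 50 kb elsewhere, from 115150001 to 115200000 between Ighv1-52 and Ighv1-55, with 16 peaks against 5 in WT replicate 1 and 21 and 13 in Prmt6KO.

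The highest fold of any member was 6.33, in Prmt6KO replicate 1 at Igk from 69018314 to 69018825 between Igkv4-80 and Igkv4-79, with 3.62 in Prmt6KO replicate 2 and no peak in WT. A second Igk place, between Igkv8-24 and Igkv8-23-1 from 70229156 to 70229557, had 4.03 and 4.07 in Prmt6KO and no peak in WT. Between Igkv12-47 and Igkv12-46 the folds were 3.46 and 4.07 in Prmt6KO, again with none in WT. In WT the Igk places shared with the highest folds reached 2.84 and 2.87, for example between Igkv15-101 and Igkv14-100 from 68513867 to 68514282, where Prmt6KO replicate 2 had 2.26. The Prmt6KO lists are longer and shared more peaks between replicates than the WT lists, in the loci and over all peaks. The part of list length in this was not tested. In Prmt6KO 14.9% and 22.4% of the members overlapped a peak of the other library, against 11.5% and 21.6% of all peaks. In WT 5.87% and 7.73% did, against 6.06% and 7.34%. In Igh 162 of 947 and 162 of 642 peaks were so shared in Prmt6KO, and 24 of 300 and 24 of 219 in WT.

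Igk was even along its 3172 kb in most libraries. Its densest 50 kb differed in every library and held 24 and 20 peaks in Prmt6KO and 8 and 13 in WT. That of WT replicate 2 lay at the far V end between Igkv1-136 and Igkv14-134-1, from 67600001 to 67650000, where WT replicate 1 had 4 peaks and Prmt6KO 21 and 13. The J segments and Igkc, the kappa constant gene, had 4 and 0 peaks in Prmt6KO and 0 and 0 in WT over 4.19 kb, too few to compare. The stretch of V segments next to J held 1.08 and 1.27 times the autosomal density in Prmt6KO and 1.10 and 0.963 times in WT. In Igl, with 3 V segments, 5 J segments and 4 C genes, the strongest peak had a fold of 4.03 and 3.62 in Prmt6KO and 4.06 and 3.28 in WT, at a different place in each library. The WT replicate 1 peak, at 19067643 to 19068058 between Iglj3 and Iglv1, had 1.73 in Prmt6KO replicate 1.

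In Tcra/Tcrd, the largest T cell receptor locus, the strongest peak of each library was its own, with folds of 5.18 and 5.43 in Prmt6KO and 4.47 and 4.10 in WT. Each had no overlapping peak in the other libraries. The shared place with the highest lower fold lay between Trav9n-4 and Trav4n-4, with 2.88 and 4.53 in Prmt6KO and no peak in WT. In WT it lay between Trav15d-3 and Trav7n-4, with 2.84 and 2.87 and no peak in Prmt6KO. Trdc and Trac, the constant genes of the delta and alpha chains, were each overlapped by a peak in both Prmt6KO libraries, Trdc at folds of 2.30 and 2.72 and Trac at 2.30 and 2.72, and neither was in WT. At the locus density of each library about 1.45 and 1.05 of these 2 genes would be overlapped in Prmt6KO. In WT about 0.525 and 0.408 would be, so their absence there was not detectable as a difference. WT replicate 1 had a peak of fold 4.06 between Trdj2 and Trdc, outside both segments. In Prmt6KO replicate 2 no peak started for 48.2 kb between 53692138 and 53740313, where Prmt6KO replicate 1 had 15 peaks and WT 7 and 3, and 0.352% of that library's autosomal gaps are as long. Both WT libraries had their longest gap at the Trac end, running past the interval, of 72.6 kb from 54212448 to 54285092 in replicate 1 and 75.6 kb from 54210732 to 54286284 in replicate 2. Prmt6KO had 26 and 12 peaks in the longer of the 2. Gaps as long made up 1.78% and 3.74% of the autosomal gaps of the WT libraries. Each gap named here is the longest of 359 in Prmt6KO replicate 2 and of 148 and 111 in WT. The shares of single gaps therefore do not show these gaps to be rare.

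In Tcrb the V part held 1.06 and 1.43 times the autosomal density in Prmt6KO and 1.99 and 1.74 times in WT. The 50 kb from 40950001 to 41000000 between Trbv1 and Trbv2 was the densest of the locus in all but Prmt6KO replicate 1, with 17 and 17 peaks in Prmt6KO and 15 and 6 in WT, or 1.07 and 2.06, and 4.49 and 2.33, times the autosomal mean. In WT replicate 1 a step followed, between Trbv3 and Trbv4, with 47 peaks before and 20 after 41050000, where Prmt6KO had 78 and 87 in replicate 1 and 63 and 52 in replicate 2, and WT replicate 2 had 25 and 21. The place between Trbv1 and Trbv2 from 40978560 to 40978853 had peaks in all 4 lists, with folds of 1.73 and 2.26 in Prmt6KO and 2.84 and 3.28 in WT. Tcrb holds 13 coding genes, as many as each of its flanks. The strongest Tcrb peak of Prmt6KO replicate 2, with a fold of 4.07, overlapped 1 of them, the trypsinogen gene Try5, with no peak there in the other libraries. The strongest of Prmt6KO replicate 1 was over Trbv23, with 4.61, again in that library alone.

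Tcrg was the sparsest locus. Its 179 kb held 47 and 18 peaks in Prmt6KO and 14 and 4 in WT, where the autosomal density gives 56.7 and 29.5, and 11.9 and 9.21. In Prmt6KO replicate 2 no peak started for 81.1 kb between 19230095 and 19311211, from past Trgc1 to past Trgc2, where the density of the locus itself gives 8.16 peaks. This gap is the longest of 19 in the locus, and 0.0578% of the autosomal gaps of that library are as long. It was chosen as the longest after the data were seen, so this share does not show it to be rare. Prmt6KO replicate 1 had 15 peaks in this stretch, and WT had 6 and 1. WT replicate 2 had an overlapping gap of 96.7 kb, from 19209837 to 19306570, the longest of 5. Of its autosomal gaps 2.15% are as long. Prmt6KO replicate 2 had the only step called in a T cell receptor locus outside Tcrb, at 19200000 between Trgv5 and Trgj1. It had 68 peaks before and 28 after this position, against 86 and 65 in Prmt6KO replicate 1. WT had 18 and 14, and 13 and 8. The arms of 250 kb are longer than the 179 kb locus. Most of the arm before the position is flank, so the call does not place a step inside Tcrg. The only peaks shared by the Prmt6KO libraries in Tcrg stood just past Trgc1 (2.30 and 2.72) and over Trgj2 (1.73 and 3.17), either side of the gap. No Tcrg peak had a q of 0.05 or below in any of the 4 libraries.

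**Figure D4:**
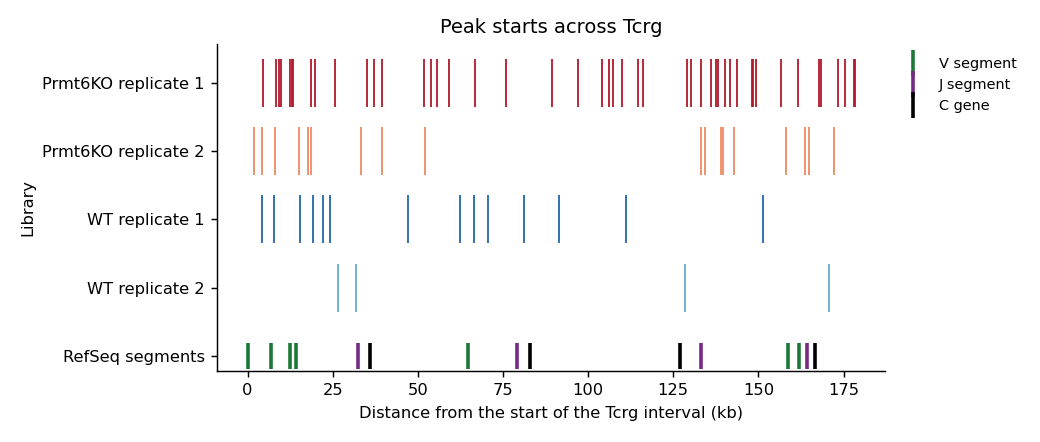
Start of every peak across the 179 kb Tcrg interval in the 2 Prmt6KO and 2 WT libraries, with RefSeq V, J and C positions below, in kb from the start of the interval. Prmt6KO replicate 2 has no peak for 81.1 kb in the middle of the locus, where Prmt6KO replicate 1 has 15.

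Over the 6 loci together, V segments were overlapped more often than their locus density gives in Prmt6KO, and less often in WT, but not in every locus. A peak overlapped 161 and 84 of the 527 V segments in Prmt6KO and 29 and 10 in WT. At each library's own peak density in the locus, allowing for peak width, 115 and 77.0 would be overlapped in Prmt6KO and 33.1 and 26.2 in WT. The ratios of these numbers were 1.40 and 1.09 in Prmt6KO and 0.875 and 0.381 in WT, without overlap of the genotypes (log2 difference 1.10, exact permutation p = 0.333, n = 2 each). Over all 32619 promoter windows on chromosomes 1 to 19 and X, set against the density of their chromosomes, the ratios were 0.837 and 0.551 in Prmt6KO and 0.533 and 0.400 in WT, a log2 difference of 0.56 in the same direction (exact permutation p = 0.333). No test set these 2 differences against each other. Single loci varied. In Tcra/Tcrd the ratio was 1.40 and 0.810 in Prmt6KO and 0.715 and 0.316 in WT, so Prmt6KO replicate 2 lay below 1. In Igk it was 1.49 and 1.16 in Prmt6KO and 1.10 and 0.684 in WT, so WT replicate 1 lay above 1. In Tcrb 8 and 7 of 35 V segments were overlapped in Prmt6KO, where 7.70 and 5.52 are given, and 3 and 2 in WT, where 2.56 and 1.99 are given. WT replicate 2 had none of the 184 Ighv segments overlapped, where its density gives 8.81, and Prmt6KO had 49 and 29 against 34.7 and 24.0. Of V genes 32.9% and 16.3% were overlapped in Prmt6KO and 5.35% and 1.87% in WT, and of V pseudogenes 24.8% and 15.0% in Prmt6KO and 5.88% and 1.96% in WT. Of 94 J segments, 16 and 4 were overlapped in Prmt6KO, where the density gives 10.1 and 6.14, and 1 and 3 in WT, where it gives 2.61 and 1.92, so neither genotype lay on 1 side. This comparison was chosen after the data were seen.

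**Figure D5:**
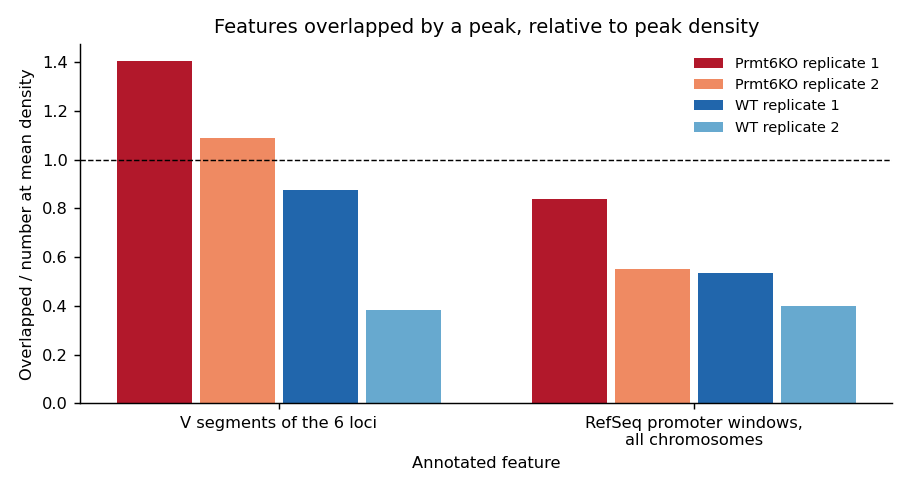
Number of features overlapped by a peak divided by the number that the peak density gives, for the 527 V segments at the density of their locus and for all RefSeq promoter windows at the density of their chromosome. The dashed line marks 1. V segments lie at 1.40 and 1.09 in Prmt6KO and at 0.875 and 0.381 in WT.

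In bins of 200 kb, of which the loci hold 45, a bin was called dense at 1.5 times the autosomal mean or more and sparse at 0.5 times or less. Dense bins numbered 0 and 13 in Prmt6KO and 13 and 19 in WT, of which 0 and 7, and 6 and 7, were in Igh. Over all bins 0.777% and 8.35% were dense in Prmt6KO and 10.2% and 18.6% in WT, so all libraries but Prmt6KO replicate 1 had a larger share in the loci, 28.9% in Prmt6KO replicate 2 and 28.9% and 42.2% in WT. Sparse bins numbered 0 and 1 in Prmt6KO and 1 and 4 in WT, where 1.73% and 10.7%, and 19.5% and 24.6%, of all bins were sparse. The single Tcrg bin was sparse in Prmt6KO replicate 2 and WT replicate 2. As a description over bins, which share their library's depth, the Igh profiles of Prmt6KO replicate 2 and WT correlated at a Pearson r of 0.85 (WT replicate 1) and 0.75 (WT replicate 2) over 14 bins, and the WT profiles with each other at 0.83. Over all 12026 autosomal bins the same pairs gave 0.67, 0.68 and 0.75. Prmt6KO replicate 1 gave 0.49 with Prmt6KO replicate 2, 0.59 with WT replicate 1 and 0.39 with WT replicate 2 over the Igh bins. Over the 16 Igk bins Prmt6KO replicate 1 gave -0.33 and -0.27 with the WT libraries, and Prmt6KO replicate 2 gave 0.34 and 0.73.

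The Igf2bp2KO lists held few peaks at these loci, and their length gives few. With 1028 and 1261 peaks in all, the autosomal density gives 3.34 and 4.12 peaks in the loci, and 0 and 2 were found (exact Poisson intervals 0 to 3.69 and 0.242 to 7.22). Both intervals include the number that the autosomal density gives, so no depletion is shown. The share of listed peaks in the loci was 0% and 0.159% in Igf2bp2KO and 0.495% and 0.471% in WT, and these shares were not tested against each other. Both Igf2bp2KO peaks were in the Igh V array of replicate 2. The one from 114795730 to 114795929, between Ighv1-26 and Ighv1-27, had a fold of 3.08 in Igf2bp2KO replicate 2, and 3.17 in Prmt6KO replicate 2, with no peak in WT. It lies in the densest 50 kb of Igh described above. The one from 115316813 to 115317012, between Ighv1-58 and Ighv1-59, had a fold of 2.65 in Igf2bp2KO replicate 2, and 1.73 in Prmt6KO replicate 1. Both had a q of 1.

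Genes that act on the loci were also read for peaks, in the gene with 5 kb either side. Of the V(D)J recombination and end joining list, 17 of 18 genes matched the annotation. They held 419 and 223 peaks in Prmt6KO, 0 and 0 in Igf2bp2KO and 91 and 81 in WT, where the mean density gives 399 and 208, 0.478 and 0.589, and 84.0 and 64.8. Rag1, a subunit of the recombinase, had 8 and 0 peaks in Prmt6KO and 0 and 1 in WT. The mean density gives 6.74 and 3.51, and 1.42 and 1.09. Rag2, its partner, had 2 and 2 in Prmt6KO and 1 and 1 in WT, against 5.65 and 2.94, and 1.19 and 0.917. Dntt, the polymerase that adds bases at the joints, had 12 and 3 in Prmt6KO and 0 and 0 in WT. For Dntt the mean density gives 12.8 and 6.64, and 2.69 and 2.07. Xrcc4, of the ligase complex, had 76 and 65 in Prmt6KO and 36 and 39 in WT, against 79.4 and 41.4, and 16.7 and 12.9. In all long lists but that of Prmt6KO replicate 1 the excess of Xrcc4 was larger than that of the whole list. The other genes together were below mean density there. The marker lists stood below the mean density in all 4 long lists. B cell markers, 8 genes, held 195 and 76 peaks in Prmt6KO and 27 and 16 in WT (219 and 114, and 46.1 and 35.5, at mean density). T cell markers, 8 genes, held 71 and 21 in Prmt6KO and 5 and 6 in WT (92.6 and 48.2, and 19.5 and 15.0). Myeloid markers, 8 genes, held 85 and 29 in Prmt6KO and 16 and 7 in WT (93.7 and 48.8, and 19.7 and 15.2). Peaks of a histone mark do not measure expression, so these lists do not name the cells.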

How the data were processed

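Per the submitters' processing notes, the tools named are MACS2 2.1.0, HISAT2, bedtools, Trim Galore and bcl2fastq 2.17, with mm10 as build; settings and order are not given in the sources used here. The 6 deposited peak lists hold the peaks of 1 library each. In the deposited lists each peak has the authors' fold enrichment, a ratio of summit signal to background, and the authors' -log10 p-value and -log10 q-value. The companion tables give, per the file headers, the summit pileup, a coverage signal that is whole fragments in Prmt6KO and WT and scaled down by the authors in Igf2bp2KO. They served here only to rank, filter and describe the peaks of 1 list at a time. With the background recovered as the constant that links pileup and fold, no local or input background is visible in a list. Sequencing depth is not known from the files.

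Peaks were counted by start in the intervals and in equal lengths either side (Python 3.11.15, numpy 2.4.6, pandas 2.3.3, scipy 1.17.1, matplotlib 3.10.9). The 2 Prmt6KO and 2 WT libraries were compared by the log2 ratio of locus to flank density with a two-sided exact permutation test and Benjamini-Hochberg adjustment over 6 loci. Peaks sharing at least 1 base count as overlapping. Step calls were tested on simulated data. Segments, genes and promoter windows came from RefSeq, GRCm38.p6. The text names the C genes, Adam6a, Adam6b, the listed gene groups, each library's strongest peak per locus, up to 3 shared peaks per locus and genotype, every Igf2bp2KO peak and every step, and describes some of these by counts. The members and lists were chosen with earlier results of these data known.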

Additional observations from a re-analysis of the deposited data

How the results depend on the processing

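With 2 libraries a genotype no test of Prmt6KO against WT can pass 0.05, so only direction and size can be followed. The Igh difference kept its sign in 13 of 13 planned settings (-1.42 to -0.15) and the Igl difference in 12 of 12 (-1.0 to -0.36). Some of these settings could not have reversed it. Leaving 1 library out cannot where both Prmt6KO values lie below both WT values, as at Igh and Igl. The replicate block equals the reported difference at every locus. The Igk difference reversed in 3 of 13: 0.21 with peaks of q 0.05 or below, 0.0081 with flanks of double length, and among leave-one-out values of -0.37 to 0.042. The Tcra/Tcrd difference reversed in 1 of 13, to 0.40 with peaks of q 0.05 or below, and to 0.043 against autosomal bins without coding genes. The Tcrb difference, near 0, reversed in 7 of 12: -0.28 with summits of at least 5 fragments, -0.14 at equal list length, -0.37 against the rest of the chromosome, -0.15 and -0.27 with shorter and double flanks, and -0.025 to 0.041 with each replicate left out; it was -0.24 against bins without coding genes. The Tcrg difference reversed in 2 of 12: 0.079 against the rest of the chromosome, and among leave-one-out values of -1.12 to 0.22; it was 0.11 against bins without coding genes. No value with q of 0.05 or below exists for Igl, Tcrb, Tcrg or the Igh V array, where a library had no such peak in the locus or its flanks. The causes were not tested.

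As a replicate block, the mean of the 2 same-number differences equals the reported difference, for example -0.98 at Igh, -0.16 at Igk, -0.61 at Igl, -0.23 at Tcra/Tcrd, 0.01 at Tcrb and -0.45 at Tcrg, and an exact sign-flip test of 2 pairs cannot go below 0.5. Same-numbered libraries deviated together over 12026 autosomal bins (r = 0.27), but nothing in the labels pairs them.

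The number of step calls in the loci, 43 over 4 libraries, was 18 with arms of 100 kb, 75 with 500 kb, 19 at a ratio of 3 and 18 at p of 0.001. Calls between the WT libraries, 8 as reported, were 1 with arms of 100 kb and 0 at p of 0.001. Calls between the Prmt6KO libraries, 4 as reported, were 0 with arms of 100 kb, 0 at a ratio of 3, 1 at p of 0.001 and 1 with summits of at least 5 fragments. At a ratio of 3 all 19 calls were in WT replicate 2. Sparse bins, 3.33% of locus bins as reported, were 0% at 500 kb. The Igf2bp2KO peaks, 2 as reported, were 0 with q of 0.05 or below and 0 to 2 with 1 library left out.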
